A study of Mus musculus with 16 samples.

Results

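Bone morphogenetic protein (BMP) signalling was followed through 10 genes in sorted intestinal cells of mice that had undergone bariatric or sham surgery. The genes are the receptors Bmpr1a and Bmpr2, the receptor-regulated Smads Smad1 and Smad5, the common-partner Smad4, the inhibitory Smads Smad6 and Smad7, and the target genes Id1, Id2 and Id3. They were taken by gene symbol, 10 of the 48440 genes listed in each of the duodenal, jejunal and ileal tables. RNA-Seq was performed on GFP+ cells of 7 female Lgr5-EGFP mice, which carry green fluorescent protein in the stem cell gene Lgr5, so that the sort takes stem cells and early progeny that still hold the protein. All mice ate a diet with 60% of energy from fat for 16 weeks and were killed 4 weeks after sham surgery or vertical sleeve gastrectomy (VSG, excision of the lateral stomach), when a liquid meal had ended an overnight fast 15 minutes before. Cells positive for CD45 (leukocytes), CD31 (endothelium) or annexin V, and dead cells, were gated out. The duodenum and jejunum gave 4 VSG and 2 sham libraries each, from 1 set of 6 mice, and the ileum gave 2 VSG libraries (mice 4 and 5) and 2 sham libraries. A library is 1 segment of 1 mouse, and the replicate number follows a mouse along the gut within its surgery group. The question was whether surgery altered these genes in each segment.

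BMP ligands assemble type I receptors such as Bmpr1a with type II receptors such as Bmpr2. The type I receptor then phosphorylates Smad1 and Smad5, which enter the nucleus with Smad4 and switch on target genes, among them the Id genes and the inhibitory Smads that feed back on the pathway. In the small intestine BMP signalling is low at the crypt base, where antagonists shield the stem cells, and rises toward the villus, where cells differentiate. Id proteins are helix-loop-helix proteins without a DNA-binding region, and they block the E proteins that drive many differentiation programmes.

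Implied depth was 33.7 to 63.6 M reads per library in the duodenum, 22.2 to 57.8 M in the jejunum and 10.9 to 36.4 M in the ileum. The stem cell markers summed to 1846 to 3609 CPM (counts as a share of the library total) in the duodenum, and enterocyte markers were also high in every segment. Immune, stromal and endothelial markers summed to at most 59.6, 51.4 and 20.8 CPM in any library, with 5 or more of the 10 immune markers at 0 in each library. Jejunal sham replicate 1 stood apart, with stem cell markers at 349 CPM against 1428 to 1996 in the other 5 jejunal libraries, Lgr5 at 0 and enterocyte markers at 51260.3. Jejunal VSG replicate 1 held ileal genes such as Fabp6 (6472 CPM for 3 ileal genes), against at most 15.2 in the other jejunal libraries. In the ileum, 4 and 2 of the 10 stem cell markers were at 0 in sham replicates 1 and 2 (Lgr5 in sham replicate 1), and 0 and 1 were at 0 in VSG replicates 4 and 5. Each table was normalized on its own, so no level was tested between segments.

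Levels of the 10 genes were set side by side as CPM per kilobase of exon. On the mean of each segment Id1, Id3 and Smad4 led and the type II receptor was lowest. Id1 was the highest member in all 16 libraries, with a lowest level of 58.8, a median of 90.6 and a highest of 224. Its mean level exceeded that of 97.2%, 97.1% and 97.7% of the genes detected in the duodenum, jejunum and ileum. Id3 followed with a median of 34.7 (18.4 to 132), then Smad4 with 27.4 (13.1 to 41.7) and Id2 with 14.2 (0 to 28.0). Bmpr1a, Smad7 and Smad1 lay close together, with medians of 13.1 (4.23 to 24.2), 10.003 (3.35 to 21.6) and 9.97 (6.05 to 14.8). Smad6 had a median of 7.09 (0.932 to 15.98), Smad5 of 4.38 (2.07 to 21.0) and Bmpr2 of 1.44 (0.792 to 4.93).

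Neighbours in this order often changed places. Id1 lay above Id3 in 16 of 16 libraries and Smad5 above Bmpr2 in 15. Id3 lay above Smad4 in 11, Smad4 above Id2 in 13 and Id2 above Bmpr1a in 10. Bmpr1a exceeded Smad7 in 9 libraries, Smad7 exceeded Smad1 in 7, and Smad6 exceeded Smad5 in 11, so the libraries did not separate these pairs. Measured per kilobase of the longest transcript, Smad1 lay above Smad7 in all but 3 libraries, and Id1 lay above Id3 in 14.

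**Figure D1:**
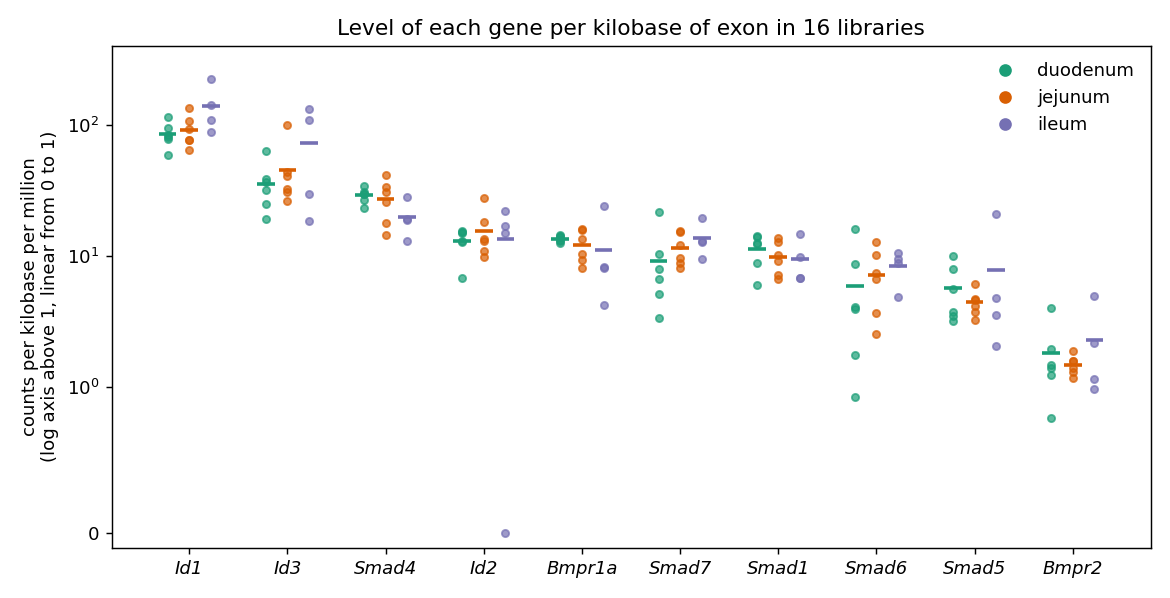
Level of each gene in each of 16 libraries, in CPM per kilobase of exon, on a vertical axis that is logarithmic above 1 and linear below it. Points are libraries coloured by segment and bars are segment means. Id1 lies at 58.8 or above in every library, Bmpr2 is the lowest gene on average, and the single point at 0 is Id2 in ileal sham replicate 2.

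Variation between mice, read within the VSG libraries alone, differed widely among the members. In the duodenum Bmpr1a was the steadiest, with 3779 to 4339 normalized counts and a coefficient of variation of 6.03%. Smad6 was the most variable, from 141 to 2400.4, which is 17.01-fold, with a coefficient of variation of 87.5%. In the jejunum the coefficient of variation ran from 15.2% (Id2) to 72.9% (Id3), and the Id3 value rests on VSG replicate 1 (6004 normalized counts against 1630.1 to 1970.4 in the others). No coefficient of variation is given for groups of 2 libraries.

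VSG was then set against sham in each segment, on log2(normalized count + 1) with limma, a linear model that shares information on variance among genes. A gene was called when its mean exceeded 50, its log2 fold change exceeded 0.5 in size, its p was under 0.05 and its adjusted p under 0.2. All 10 members passed the filter on low values in all 3 segments. None was called in the duodenum (0.0237% of all genes tested), the jejunum (0.0126%) or the ileum (0%). These thresholds are those of the study, which applied them to DESeq2 fits and reported far more genes in each segment. Limma called 4, 2 and 0 genes in all, so the lack of a call does not show that a member was unchanged. At an unadjusted p under 0.05, limma singled out 1 member in the duodenum (Smad5, lower, against 6.27% of all genes), 1 in the jejunum (Id2, lower, against 6.04%) and 0 in the ileum (3.28%). Without the variance trend, limma left 1 such member (duodenal Smad5) and 0 for both other segments. The p-values measure the spread between mice.

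The members did not move as a block. Their median log2 fold change was -0.17 in the duodenum (4 higher and 6 lower), 0.04 in the jejunum (5 and 5) and -0.52 in the ileum (2 and 8). The median over all genes was 0.01, 0.11 and 0.24 in the same order, with 50.7%, 55% and 57% of genes higher after VSG. VSG and sham libraries did not overlap for 3 members in the duodenum, all lower after VSG (Smad5, Id2 and Smad4, against 8.01% of all genes), and for 0 that were higher (6.44%). In the jejunum this held for 1 member, Id2, lower after VSG (6.21%), and for 0 higher members (6.59%). In the ileum it held for 4 lower members (Bmpr2, Smad1, Smad4 and Smad6, against 11.6%) and 1 higher member (Id2, against 17%). In CPM the groups stayed apart for duodenal Smad5 alone (lower, against 6.25% of all genes) and for 0 higher duodenal members (8.38%). In the jejunum they were apart for Id2 (lower, 4.37%) and for Smad5 and Smad7 (higher, 8.51%), on a scale that puts the median of all jejunal genes at 0.33. In the ileum they were apart for Bmpr2 and Smad1 (lower, 9.96%) and Id2 (higher, 19%).

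Several cell type lists also parted the ileal libraries, and their part in the ileal differences was not tested. Stem cell markers summed to 631 and 934 CPM after VSG against 238 and 427 after sham surgery (8 of 9 tested higher, 1 at an unadjusted p under 0.05). Goblet cell markers summed to 6670.1 and 8732 against 3254 and 6061 (7 of 8 higher, 0 at that p), and enteroendocrine markers to 284 and 527 against 187 and 193 (9 of 10 higher, 1 at that p). These 3 lists were higher after VSG. The 3 ileal genes summed to 1602 and 3774 CPM after VSG against 7209 and 9130.1, all 3 lower and 2 at an unadjusted p under 0.05. Stromal markers were low, at 6.67 and 11.2 against 25.9 and 37.5, and so were immune markers, at 15.9 and 31.5 against 0.140 and 5.47, with 9 of 10 at 0 in each sham library. Enterocyte, Paneth, tuft and endothelial sums overlapped.

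**Figure D2:**
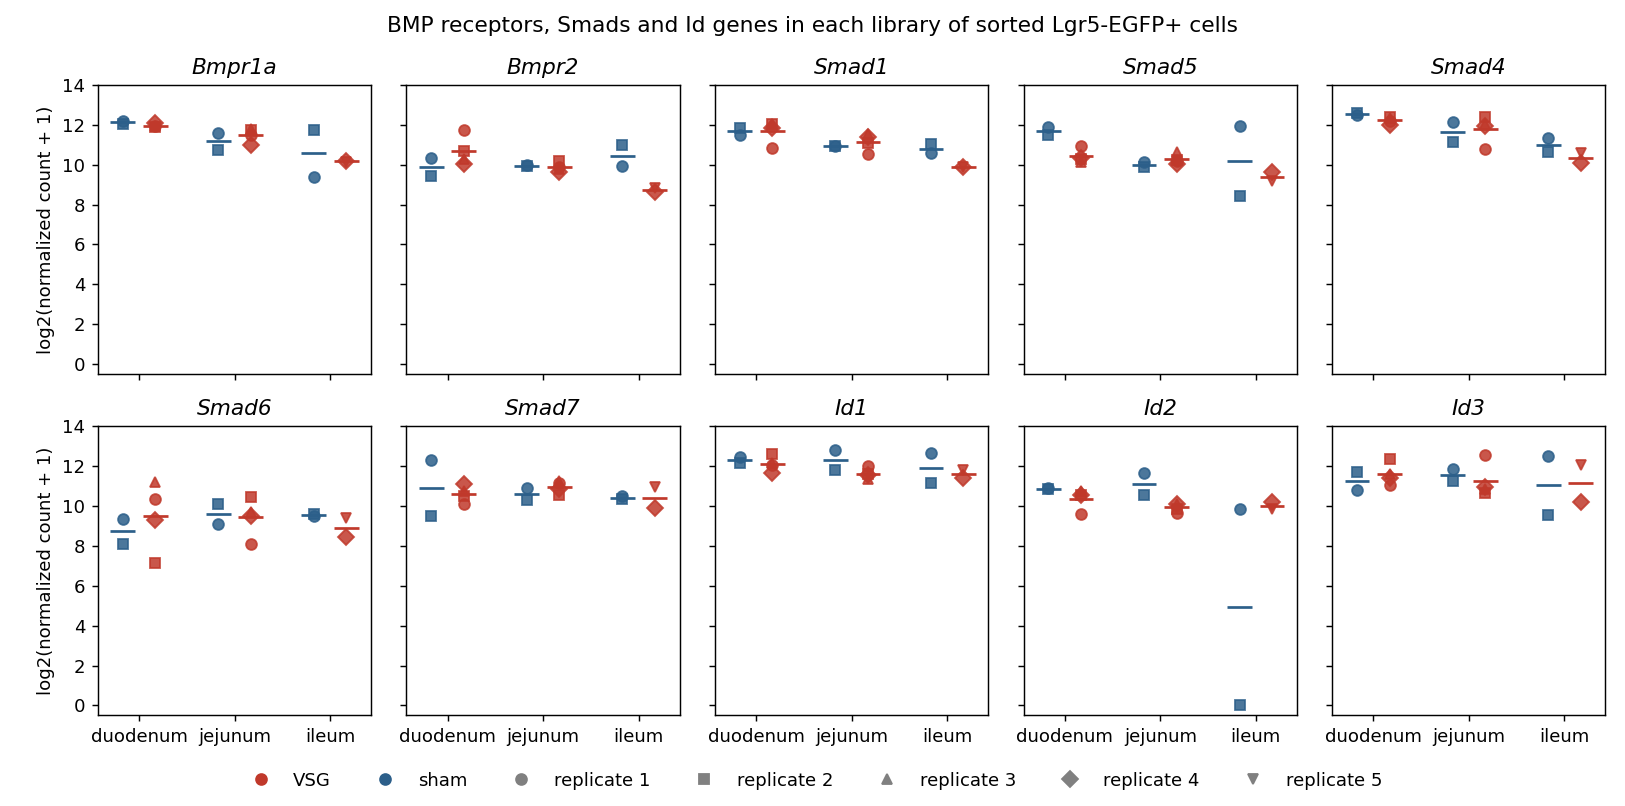
Each gene in every library, as log2(normalized count + 1), with VSG in red, sham in blue, marker shape for the replicate number and bars for group means on the log2 scale. All panels share 1 vertical axis. Duodenal Smad5 and jejunal Id2 show every VSG library under both sham libraries, and Id2 in ileal sham replicate 2 sits at 0.

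**Figure D3:**
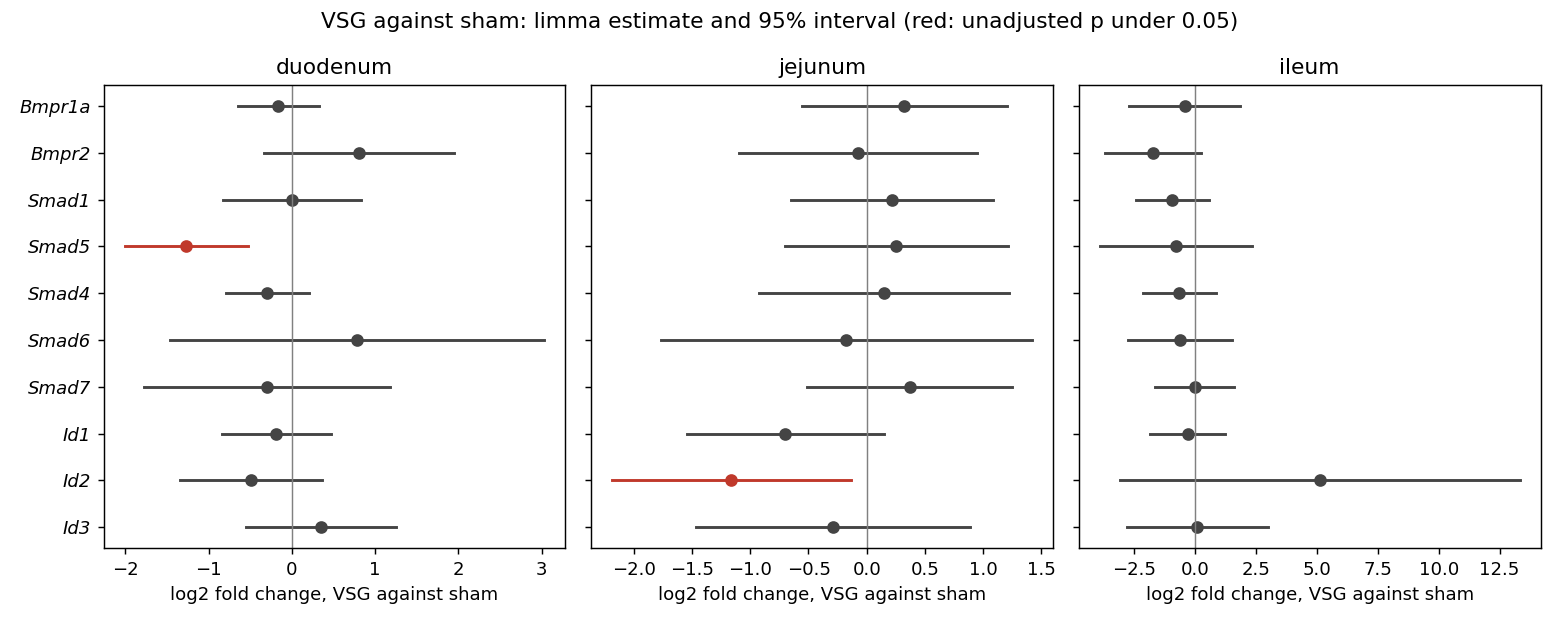
Log2 fold change of VSG against sham for each gene from limma, with its 95% interval, and a horizontal axis of its own in each segment. Red marks an unadjusted p under 0.05. Only duodenal Smad5 (-1.27) and jejunal Id2 (-1.16) have intervals that leave out 0, and the ileal interval, from 2 libraries a group, is the widest of the 3 for every gene but Smad6.

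The receptors were considered first. Bmpr1a (ENSMUSG00000021796, chr14:34410734-34503341, minus strand of GRCm38), the main type I BMP receptor of the gut epithelium, had 3939, 3779, 3917 and 4339 normalized counts in duodenal VSG replicates 1 to 4 and 4687 and 4247 in sham replicates 1 and 2. An antisense gene, Gm17110, overlaps Bmpr1a with a duodenal mean of 19.97 normalized counts. VSG replicate 4 lay between the sham values, and the log2 fold change was -0.16 (SE 0.22, 95% interval -0.65 to 0.32). In the jejunum the VSG libraries ranged from 2021 to 3500.2 and overlapped the sham libraries (3096 and 1731), and the log2 fold change was 0.32 (SE 0.40). The ileal VSG libraries agreed closely at 1148 and 1139.6, while sham replicates 1 and 2 lay on either side at 673 and 3464. The ileal log2 fold change of -0.42 (SE 0.91) became -1.60 without sham replicate 1 and 0.77 without sham replicate 2.

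Bmpr2 (ENSMUSG00000067336, chr1:59763400-59879014, plus strand) encodes the type II receptor. Duodenal VSG replicates 1 to 4 had 3413, 1662, 1248 and 1046 normalized counts and the sham replicates 1298 and 684. VSG replicate 1 lay well above the rest, and the groups overlapped. The log2 fold change was 0.81 (SE 0.51, 95% interval -0.33 to 1.95), and leaving out VSG replicate 1 gave 0.35. Jejunal Bmpr2 varied little, with 791 to 1164 after VSG against 1004 and 964 (log2 fold change -0.08, SE 0.46). In the ileum both VSG libraries (391 and 459) lay under both sham libraries (973 and 1995), with a log2 fold change of -1.72 (SE 0.79, 95% interval -3.68 to 0.25). Limma gave this a p of 0.0761 and an adjusted p of 0.736. An exact permutation test of 2 libraries against 2 cannot go below its value here, p = 0.333.

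Of the receptor-regulated Smads, Smad5 (ENSMUSG00000021540, chr13:56703010-56742377, plus strand) gave the lowest p among the members. It had 1984, 1229, 1112 and 1309.8 normalized counts in duodenal VSG replicates 1 to 4, or 1409 ± 392.2 (SD, n = 4). The sham replicates had 3833 and 2859, or 3346 ± 689 (SD, n = 2). Every VSG library was below both sham libraries. The log2 fold change was -1.27 (SE 0.33, 95% interval -2.01 to -0.53). Limma gave a p of 0.00359, but the adjusted p over 16867 genes was 0.485. The exact two-sided permutation test gave p = 0.0667, and with groups of 4 and 2 it cannot go lower. The unadjusted p stayed under 0.05 in all 14 alternatives run, with log2 fold changes from -1.48 to -1.06. In bulk libraries, fewer cells that make a transcript and less transcript per cell cannot be told apart.

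Cell type markers that parted the duodenal groups as Smad5 did are given here, and their part in the result was not tested. The 10 enterocyte markers summed to 7761 to 16689.8 CPM in the VSG libraries and to 18029 and 24522 in the sham libraries, with all 10 lower after VSG, 5 of them at an unadjusted p under 0.05, and none at 0 in any duodenal library. The 8 tuft cell markers summed to 406 to 889 after VSG against 126 and 296, with all 8 higher and 7 at an unadjusted p under 0.05. Immune markers, though low, summed to 9.64 to 59.6 after VSG against 3.25 and 5.91, with all 3 that could be tested higher, 1 of them (Ptprc, the gene of CD45) at an unadjusted p under 0.05. The T cell markers Cd3e, Cd3g and Cd8a were at 0 in every duodenal library. The stem cell markers overlapped, at 1846 to 3609 against 2082 and 2354.

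Smad5 is shown here with the 250 bases before its first RefSeq start (chr13:56702760-56703009, plus strand, GRCm38.p6), because it was the member with the strongest duodenal difference. These bases end where the GENCODE M21 gene begins and lie outside every annotated exon. Both strands were searched for the palindromic Smad box GTCTAGAC, the GC-rich Smad box GGCGCC and the E box CANNTG, the site class of E proteins, and capitals mark a match.
Smad5: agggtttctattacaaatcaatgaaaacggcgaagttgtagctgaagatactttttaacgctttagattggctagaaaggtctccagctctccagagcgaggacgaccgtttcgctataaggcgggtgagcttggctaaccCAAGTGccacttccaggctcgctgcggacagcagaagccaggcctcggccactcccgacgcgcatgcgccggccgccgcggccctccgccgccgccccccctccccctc
The window held 1 E box, 109 to 104 bases before the start, and neither Smad box, whereas the window of a second annotated Smad5 start held GGCGCC 19 to 14 bases before that start. Among 32536 RefSeq promoter windows of the same length, 66.2% held an E box, 9.65% GGCGCC and 0.169% GTCTAGAC, so the E box is what most windows show. The matches are letters only and say nothing about binding.

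Outside the duodenum Smad5 did not keep this pattern. Jejunal VSG replicates 1 to 4 had 1177, 1183, 1567 and 1039 normalized counts and the sham replicates 1134 and 932, so the groups overlapped (log2 fold change 0.26, SE 0.43, 95% interval -0.70 to 1.21). In CPM they did not, with 30.7 to 45.7 after VSG against 24.1 and 27.7. Ileal VSG replicates 4 and 5 had 788 and 578, while sham replicate 1 had 3900.1 and sham replicate 2 had 346. The sham libraries of the ileum differed 11.3-fold and enclosed the VSG values. The ileal log2 fold change of -0.78 (SE 1.25) was -2.53 without sham replicate 2 and 0.96 without sham replicate 1.

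The surgery effects in jejunum and duodenum were compared within the 6 mice that gave both segments, as the jejunal minus the duodenal log2 value of each mouse. For Smad5 this was -0.75, -0.05, 0.50 and -0.33 for VSG replicates 1 to 4, while the sham replicates gave -1.76 and -1.62. Every VSG mouse lay above both sham mice. The difference of effects was 1.52 on the log2 scale (SE 0.50, 95% interval 0.27 to 2.77), with a limma p of 0.0249 and an adjusted p of 0.985. The exact permutation p was 0.0667, the smallest possible, and Smad5 was the only member with an unadjusted p under 0.05 here (4.23% of all genes, 2.64% higher and 1.59% lower), while 0 were called (0%). Leaving out any 1 mouse other than VSG replicate 1 took the p to between 0.0512 and 0.0860. Smad5 was 1 member with every VSG mouse higher (6.43% of genes), and Bmpr2 was 1 with every VSG mouse lower (4.99%), at -0.88 (SE 0.61, exact permutation p = 0.267).

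**Figure D4:**
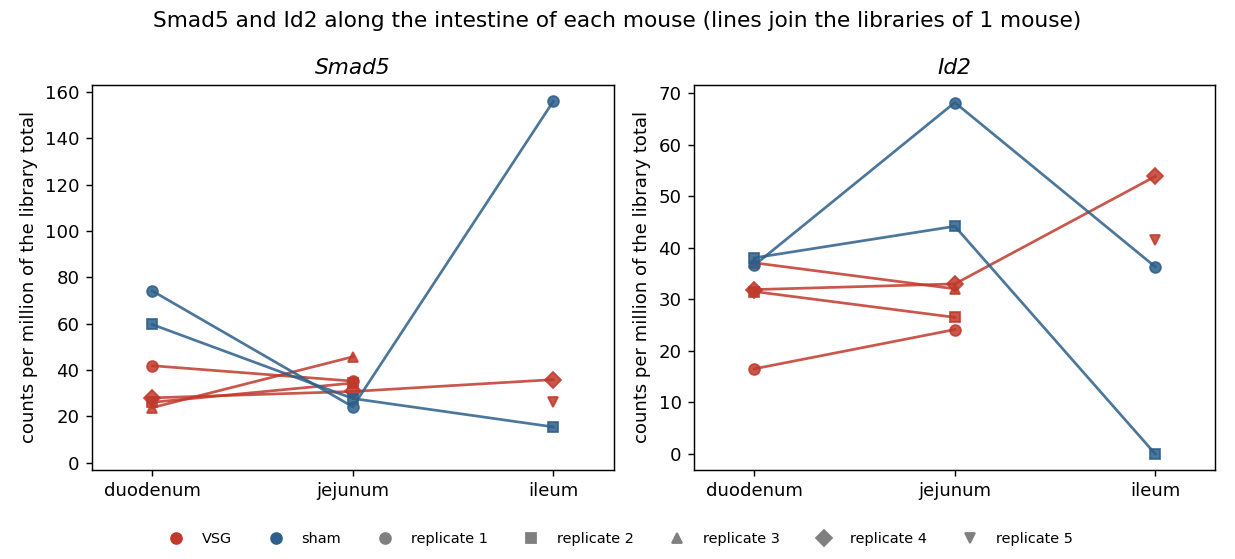
Smad5 and Id2 in CPM along the gut, with VSG in red and sham in blue, and lines that join the libraries of 1 mouse. In Smad5 both sham mice lie above all VSG mice in the duodenum (59.6 and 74.1) and below them in the jejunum (27.7 and 24.1), and in Id2 the sham mice are above all VSG mice in the jejunum. VSG replicate 5 gave an ileal library only.

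Smad1 (ENSMUSG00000031681), the other receptor-regulated Smad measured here, differed little in the upper gut. Its duodenal VSG libraries had 1798, 4160.4, 4178 and 3718 normalized counts and the sham libraries 2886 and 3706, with a log2 fold change of 0.01 (SE 0.37, 95% interval -0.82 to 0.84). VSG replicate 1 was the lowest library and the other 3 VSG libraries lay above both sham libraries. Jejunal values of 1498 to 2943 after VSG enclosed the sham values of 1957 and 1934 (log2 fold change 0.22, SE 0.39). Ileal Smad1 was 944 and 932 after VSG and 1533 and 2078 after sham surgery. These groups did not overlap, but the log2 fold change of -0.93 (SE 0.60) had a limma p of 0.175 and an interval from -2.42 to 0.56.

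Smad4 (ENSMUSG00000024515), the partner that receptor-regulated Smads of the BMP and TGF-beta branches share, had 4712, 5405, 5153 and 4027 normalized counts in duodenal VSG replicates 1 to 4. The sham replicates had 5678 and 6086, above all VSG libraries. The difference was small, with a log2 fold change of -0.29 (SE 0.22, 95% interval -0.79 to 0.21, exact permutation p = 0.133). In CPM the groups overlapped, with 85.9 to 114 against 110 and 127. In the jejunum Smad4 ranged from 1790 to 5332 after VSG around sham values of 4553 and 2239 (log2 fold change 0.15, SE 0.48). In the ileum both VSG libraries (1072 and 1559) lay under both sham libraries (2597 and 1575), the nearest pair being 1559 and 1575, with a log2 fold change of -0.65 (SE 0.60, exact permutation p = 0.333).

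The inhibitory Smads, which compete for receptors and recruit ubiquitin ligases, included the member that varied most among duodenal VSG libraries. Smad6 (ENSMUSG00000036867) had 1324, 141, 2400.4 and 619.9 normalized counts in duodenal VSG replicates 1 to 4, and the sham replicates had 652 and 272. The VSG libraries lay on both sides of the sham libraries, so the log2 fold change of 0.78 had an SE of 1.00 and an interval from -1.46 to 3.03. The jejunal and ileal changes were -0.17 (SE 0.72) and -0.62 (SE 0.86). Smad7 (ENSMUSG00000025880) had 1099 to 2187 in the duodenal VSG libraries, between sham values of 5059 and 727. Its log2 fold change of -0.30 (SE 0.66) became 1.10 without sham replicate 1 and -1.70 without sham replicate 2. Smad7 changed by 0.37 (SE 0.40) in the jejunum and -0.01 (SE 0.65) in the ileum.

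Among the Id targets, Id2 (ENSMUSG00000020644, chr12:25093799-25097140, minus strand) differed most in the jejunum. It had 808, 914, 1099 and 1116 normalized counts in jejunal VSG replicates 1 to 4, or 984 ± 149 (SD, n = 4). The sham replicates had 3209.8 and 1488, or 2349 ± 1217 (SD, n = 2). Every VSG library was below both sham libraries, and the higher sham value came from replicate 1, the library with few stem cell and many enterocyte transcripts. The log2 fold change was -1.16 (SE 0.46, 95% interval -2.19 to -0.14), with a limma p of 0.0299, an adjusted p over 15857 genes of 0.760 and an exact permutation p of 0.0667, the smallest possible. Without sham replicate 1 the log2 fold change was -0.61 (a p of 0.137 in limma), and without sham replicate 2 it was -1.72 (a p of 0.00368 in limma, adjusted p = 0.0544). The latter setting, which leaves the outlying library as the only control, called 2710 of 15609 genes. With libraries scaled to the same total, the log2 fold change was -0.94 (a p of 0.0568 in limma), and leaving out VSG replicate 1 or 2 also took the p above 0.05.

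Enterocyte markers in the jejunum summed to 17110.5 to 30370 CPM after VSG and to 51260.3 and 26964 in sham replicates 1 and 2, with all 10 lower after VSG, 2 of them at an unadjusted p under 0.05. Goblet cell markers summed to 6021 to 11405 after VSG against 2264 and 6904, with all 8 higher, 5 of them at an unadjusted p under 0.05. Tuft cell markers summed to 255 to 767 against 30.0 and 422, with all 8 higher, 5 of them at an unadjusted p under 0.05. Paneth cell markers summed to 3274 to 8428 against 864 and 7558, with all 7 higher, 2 of them at that p. Enteroendocrine markers summed to 188.5 to 1477 against 481 and 927, with 7 higher, 2 of them at that p, and 3 lower. Stem cell markers summed to 1428 to 1996 against 349 and 1855, with 9 of 10 higher and 0 at that p. In each of these lists the groups overlapped. Stromal markers did not overlap, at 6.07 to 17.5 against 2.73 and 5.74, with 3 of 4 tested genes higher and 0 at that p. The part of these cell types in the Id2 result was not tested.

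The stretch upstream of the RefSeq start of Id2 is shown because Id2 was the member with the largest jejunal difference. Of the 250 bases before the start, the first 89 lie outside every exon (chr12:25096254-25096342, minus strand, GRCm38.p6), in an intron of a longer annotated Id2 transcript. Capitals mark the same 3 motifs.
Id2: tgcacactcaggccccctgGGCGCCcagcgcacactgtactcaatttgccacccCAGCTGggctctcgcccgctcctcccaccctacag
It held GGCGCC at 231 to 226 bases before the start and an E box at 196 to 191. The windows of Bmpr1a and Bmpr2 also held GGCGCC, whereas the windows of Id3, Smad1 and Smad6 held neither Smad box.

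Duodenal Id2 had 784, 1488, 1737 and 1495 normalized counts in VSG replicates 1 to 4, and the sham replicates had 1893.5 and 1824. All VSG libraries were again lower, with VSG replicate 3 near the sham values, but in CPM that library (37.1) lay between the sham libraries (36.6 and 38.0). The log2 fold change was -0.49 (SE 0.38, 95% interval -1.35 to 0.36), with a limma p of 0.224 and an exact permutation p of 0.267. Without VSG replicate 1 it was -0.24. The jejunal and duodenal effects on Id2 differed by -0.67 on the log2 scale (SE 0.48, exact permutation p = 0.2), so a difference between the segments was not shown.

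Ileal Id2 had 1184 and 913 normalized counts in VSG replicates 4 and 5 and 907 in sham replicate 1, and was listed at 0 in sham replicate 2. That library had the lowest implied depth, 10.9 M reads, and a 0 allows up to 3 reads of counting error. The same library held about 358 implied reads of Id3 and 368 of Smad6. Why Id2 was listed at 0 there was not tested. No VSG library was under a sham library, although the nearest pair was 913 and 907. The fitted log2 fold change of 5.11 (SE 3.29, exact permutation p = 0.333) depended on the pseudocount, with 5.61 at 0.5 and 3.45 at 10, and was 0.20 without sham replicate 2.

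Id1 (ENSMUSG00000042745, chr2:152736251-152737410, plus strand), the most abundant member, had 4267, 6271, 4574 and 3196 normalized counts in duodenal VSG replicates 1 to 4, against 5664 and 4531 after sham surgery. The groups overlapped (log2 fold change -0.19, SE 0.29, 95% interval -0.84 to 0.47). Jejunal Id1 was 4151, 3065, 2580.0 and 3026 after VSG and 7301 and 3608 after sham surgery, where only VSG replicate 1 exceeded the lower sham value. The log2 fold change was -0.70 (SE 0.38, 95% interval -1.55 to 0.15, exact permutation p = 0.133), and without sham replicate 1 it was -0.19. In the ileum the sham values of 6502 and 2318 enclosed the VSG values of 2759 and 3590 (log2 fold change -0.30, SE 0.62).

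Id3 (ENSMUSG00000007872, chr4:136143497-136145755, plus strand) had 2138 to 5309 normalized counts after VSG in the duodenum, against sham values of 1777 and 3331, with a log2 fold change of 0.35 (SE 0.40). In the jejunum VSG replicate 1 had 6004, far above the 1630.1 to 1970.4 of the other 3 VSG libraries and above both sham libraries (3673 and 2451). The jejunal log2 fold change was -0.29 (SE 0.53), and without VSG replicate 1 it was -0.72. The same library held the ileal transcripts described above, and their part in its Id3 level was not tested. Ileal Id3 spread from 1168 to 4308 after VSG and from 741 to 5902 after sham surgery (log2 fold change 0.10, SE 1.16).

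Pathway genes outside the 10 members were examined as 5 lists, of which 38 of 48 genes passed the low-value filter for the duodenum, 31 for the jejunum and 27 for the ileum. None was called. At an unadjusted p under 0.05 the duodenum had 2 higher and 2 lower, the jejunum 0 higher and 1 lower, and the ileum 0 higher and 1 lower, against 2.79% and 3.48%, 3.63% and 2.4%, and 2.09% and 1.19% of all genes. The median log2 fold change of the lists together was -0.07, 0.44 and -0.20 in the 3 segments.

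BMP ligands were low, as 8 of 10 passed the filter in the duodenum and only 5 further down the gut, and none had an unadjusted p under 0.05 in any segment. Bmp2 was the most abundant on the mean of the 3 segments, with 2.42, 4.93 and 15.5 CPM per kilobase from duodenum to ileum (no test between segments), but Bmp3 lay above it in the duodenum (5.24) and jejunum (5.96). Bmp2 had a log2 fold change of 0.24 (SE 0.68), 0.77 (SE 0.71) and -0.32 (SE 0.78) in that order. Bmp7, another ligand, differed between jejunum and duodenum in its surgery effect by 1.87 (SE 0.66, exact permutation p = 0.0667, adjusted p = 0.985). Among other receptors and co-receptors Neo1, which binds repulsive guidance molecules that act as BMP co-receptors, led on the mean of the segments, at 8.42, 8.15 and 9.97 CPM per kilobase, with the co-receptor Rgmb above it in the duodenum (11.7). The Neo1 log2 fold change was 0.00 (SE 0.24), 0.01 (SE 0.39) and 0.44 (SE 0.72), and of the list only Eng, an endothelial co-receptor with a mean under 50, had an unadjusted p under 0.05, in the duodenum and lower. Of the antagonists, the secreted inhibitor Nbl1 led on the mean of the segments, with 1.62, 8.18 and 42.2 CPM per kilobase from duodenum to ileum (not tested). The jejunal mean rests on VSG replicate 1 (26.7), the library with ileal transcripts, and was 4.47 without it. Twsg1, a secreted BMP-binding protein, lay above Nbl1 in the duodenum (7.91). The Nbl1 log2 fold change was -2.30 (SE 1.78), 0.44 (SE 0.92) and -0.43 (SE 0.57), and Fst, with a mean under 50, was the only antagonist with an unadjusted p under 0.05, in the duodenum and lower.

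Regulators of Smad activity were more abundant. Tob1, an antiproliferative protein that binds BMP Smads, averaged 97.9, 105 and 101 CPM per kilobase, and its log2 fold change was 0.02 (SE 0.27), -0.38 (SE 0.40) and 0.60 (SE 0.39). Skil, the SnoN corepressor of Smad complexes, had 2139 to 2779.5 normalized counts after VSG in the duodenum, against 1943 and 1316 after sham surgery. All VSG libraries were higher, with a log2 fold change of 0.64 (SE 0.28, exact permutation p = 0.0667, adjusted p = 0.788). The jejunal change of Skil was -0.89 (SE 0.47). The difference between jejunum and duodenum was -1.54 (SE 0.54, exact permutation p = 0.0667, adjusted p = 0.985). Ileal Skil went the other way from the duodenum, with 1834 and 607 normalized counts after VSG, under both sham libraries (6132 and 2519). In the ileum 11.6% of all genes had every VSG library lower, and the unadjusted limma p of Skil was not under 0.05 there.

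Ppm1a, a phosphatase of receptor-regulated Smads, had 3158 to 5489 normalized counts after VSG in the jejunum, against 9729.8 and 6318 after sham surgery. All VSG libraries were lower, with a log2 fold change of -0.90 (SE 0.35, exact permutation p = 0.0667, adjusted p = 0.760). The higher sham value came from replicate 1, the jejunal library with few stem cell and many enterocyte transcripts. Zeb2, a Smad-binding repressor, was listed at 0 in both ileal VSG libraries and had 165 and 332 normalized counts in the sham libraries (a p of 0.0483 in limma, adjusted p = 0.736).

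Of 8 other BMP targets, 3 were testable in the duodenum. Id4, the remaining Id gene, was low but higher in every duodenal VSG library, with 117, 138, 92.8 and 149 normalized counts in VSG replicates 1 to 4 against 12.01 and 0 in the sham replicates. Limma gave a p of 0.01002 and an adjusted p of 0.559, and the fitted log2 fold change of 5.09 (SE 1.58) depends on the pseudocount. Jejunal Id4 was also higher in every VSG library, with 62.6 to 133 against 32.4 and 0 (a p of 0.0997 in limma). Atoh8, the most abundant of these targets, had a mean level of 0.941 CPM per kilobase in the duodenum and a log2 fold change of 0.02 (SE 1.22).

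The TGF-beta branch, which shares Smad4, was led by the receptor Acvr1b at 19.2, 17.4 and 18.6 CPM per kilobase. Its log2 fold change was -0.35 (SE 0.22), 0.24 (SE 0.37) and -0.18 (SE 0.53). Smad2, a receptor-regulated Smad of this branch, had 708 to 1323 normalized counts after VSG in the jejunum, against 2854 and 1429.7 after sham surgery. The log2 fold change was -1.12 (SE 0.49, exact permutation p = 0.0667, adjusted p = 0.760). The value of 2854 came from sham replicate 1, the library with few stem cell transcripts, and the other sham value lay near the highest VSG value. Of the E proteins that Id proteins bind, Tcf3 was the most abundant, at 28.6, 24.0 and 14.4 CPM per kilobase, and none of the 3 had an unadjusted p under 0.05 in any segment.

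The genes whose pattern most resembled each Id gene were ranked by Pearson correlation of log2 levels, centred on each segment's mean, over 16 libraries and 10702 genes. These correlations are descriptions, since the libraries share mice and differ in depth. Id1 was most like Syf2 (0.867), Gm29216 (0.867) and Uqcrfs1 (0.848), and these were 0.847, 0.847 and 0.828 over the 15 libraries without ileal sham replicate 2. Id3 was most like Psenen (0.853), Brk1 (0.850) and Polr2c (0.848), or 0.780, 0.869 and 0.772 without that library. Id2 was most like Zc3h12d (0.987), Zhx3 (0.987) and Ap1m1 (0.986), but the values fell to 0.725, 0.773 and 0.677 without the library in which Id2 was listed at 0. Among the members themselves, Id1 and Id3 were the most alike pair (0.701, and 0.638 without that library), whereas Id2 and Id3 went from 0.544 to 0.0101.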

How the data were processed

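PolyA RNA of sorted cells was sequenced single end at 85 nt with a directional kit on a NextSeq500. Reads were aligned by the authors to mm10 with STAR 2.5.3a, quantified with Salmon 0.6.0, cleared of libraries with low mapping, and normalized within each segment with DESeq2. They deposited these normalized counts as signal values per gene and library, 1 table a segment. The tables of their own comparisons (log2 fold changes, p-values, adjusted p-values) were not used. Between 74.2% and 92.7% of low values were whole reads, so no count test was run. In all, 48058 identifiers matched GENCODE M21, all 10 members included. Depth was implied from the most frequent low value of each library, taken as the worth of 1 read.

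Each segment was fitted with limma 3.58.1 (R 4.3.3) with a variance trend on log2 values (pseudocount 1) of genes whose mean exceeded 10, with Benjamini-Hochberg adjustment over all of them. Segments were compared on within-mouse differences. Exact permutation tests were two-sided. The fits were tested on simulated data. Promoter windows are RefSeq's (GRCm38.p6), and those of 7 of 10 members were searched. All members are named. Of each pathway list, the most abundant gene per kilobase and genes with a mean above 50 and an unadjusted p under 0.05 are named, and Bmp3, Bmp7, Rgmb, Twsg1, Eng and Fst were chosen after their values were seen. A gene that met this rule is not reported here. The members and lists were chosen with earlier results of these data known. Alternatives were pseudocounts of 0.5 and 10, filters at 0 and 50, quantile normalization, equal totals, no variance trend, a replicate block, the longest transcript for lengths, and leaving out libraries 1 at a time. Other steps ran in Python 3.11.15 (pandas 2.3.3, numpy 2.4.6, matplotlib 3.10.9, scipy 1.17.1).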

Additional observations from a re-analysis of the deposited data

Results flagged for a closer look

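Id3 in jejunal VSG replicate 1 had 6004 normalized counts, a gap to the next VSG library that exceeded Dixon's limit for 4 libraries. Chance passes this limit in about 1 in 20 groups, and 1 of the 20 groups of 4 tested here passed it. The effect of surgery on Smad5 differed between jejunum and duodenum by 1.52 on the log2 scale, with 4 of 4 VSG mice above both sham mice (exact permutation p = 0.0667, adjusted limma p = 0.985). All VSG libraries lay under the sham libraries for Id2 in the duodenum (log2 fold change -0.49) and jejunum (-1.16) and above them in the ileum (5.11). The ileal value rests on sham replicate 2, listed at 0, and was 0.20 without it, with a nearest pair of 913 and 907. In CPM the duodenal groups overlapped. This difference of Id2 between the ileum and the other segments was not tested.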

How the results depend on the processing

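Under the alternatives, the members at an unadjusted p under 0.05 in limma numbered 1 in the duodenum, except 2 (Smad5 and Bmpr2) with the replicate block and 1 to 2 on leaving out a library. In the jejunum the 1 member, Id2, became 0 with equal totals, without the variance trend, with the replicate block or without VSG replicate 1, VSG replicate 2 or sham replicate 1, a range of 0 to 2 on leaving out a library. The range was 0 to 3 in the ileum (3 without sham replicate 1: Id2, Bmpr1a and Bmpr2) and 0 to 1 for the difference between segments. Before scaling, the normalized total of jejunal sham replicate 1 was 47.1 M, against 33.5 to 34.5 M in the other jejunal libraries. Equal totals raised the median log2 fold change of all genes from 0.11 to 0.33 in the jejunum. They raised it from 0.24 to 0.35 in the ileum and from 0.10 to 0.24 for the difference. They turned jejunal Bmpr2 to 0.15, jejunal Smad6 to 0.053 and ileal Smad7 to 0.10 on the log2 scale, all below those medians. The replicate block turned duodenal Smad1 to -0.26 and Id1 to 0.030, and jejunal Bmpr2 to 0.0951, Smad1 to -0.10, Smad4 to -0.047 and Id3 to 0.060. Sham and VSG mice of the same number are different mice by their labels, and the ileal groups shared no number. The deviations of same-number mice correlated by at most 0.0543. With 2 sham libraries these deviations mirror each other, so the correlations cannot decide whether the numbers pair anything. The block took the genes at an unadjusted p under 0.05 from 1057 to 710 in the duodenum and 957 to 458 in the jejunum. Longest-transcript lengths moved 5 of 30 mean levels by over 1 SD. The cause of these shifts was not tested.

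Leaving out 1 library turned 17 fold changes. A lone library left in a group is assumed to vary like the others. The log2 fold change ran from -0.17 to 0.30 for duodenal Smad1, -1.70 to 1.10 for Smad7 and -0.10 to 0.81 for Id3. In the jejunum it ran from -0.10 to 0.74 for Bmpr1a, -0.18 to 0.00245 for Bmpr2, -0.36 to 0.66 for Smad4, -0.67 to 0.32 for Smad6 and -0.72 to 0.00216 for Id3. In the ileum it ran from -1.60 to 0.77 for Bmpr1a, -2.53 to 0.96 for Smad5, -0.53 to 0.51 for Smad7, -1.05 to 0.44 for Id1 and -1.40 to 1.596 for Id3. For the difference between segments it ran from -0.12 to 1.01 for Smad4, -2.09 to 0.16 for Smad6, -0.42 to 1.77 for Smad7 and -1.39 to 0.10 for Id3.

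Counts of called genes over all genes also moved. They were 4, 2, 0 and 0 in the duodenum, jejunum, ileum and the difference, and 43, 61, 463 and 4 without the variance trend. On leaving out a library they ran from 0 to 259 (without sham replicate 1), 1 to 2710 (without sham replicate 2), 0 to 631 (without VSG replicate 5) and 0 to 798 (without sham replicate 2). Pseudocounts of 0.5 and 10 gave 0 and 10 in the duodenum. With equal totals the share of genes at an unadjusted p under 0.05 that were higher moved from 44.5% to 55.2% in the duodenum and 60.2% to 75.7% in the jejunum, and in the ileum it moved from 63.7% to 50% with quantile normalization, 72.1% with equal totals and 82.9% without the variance trend.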
